A study of Mus musculus with 2 samples.

Results

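Klf4 peaks at 7 genes that control entry into the cell cycle were examined in the mesenteric vessels of mice. The genes were the cyclin-dependent kinase inhibitors Cdkn1a and Cdkn1b, the D-type cyclins Ccnd1 and Ccnd2, the growth factor-responsive transcription factor gene Myc, and the p53 gene Trp53 with Mdm2, whose product removes p53. Each gene was given a window of 35 to 55 kb in mm9, and a peak was counted for a gene when its midpoint lay in that window. The 7 windows together spanned 305 kb and held 9 of the 7313 peaks of the deposited list. All 7 windows held a peak, so no gene of the set was without one.

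The peaks came from chromatin immunoprecipitation followed by sequencing with an antibody to Klf4, on mesenteric arcades, the small vessels that supply the gut. Of the 2 libraries, 1 was from mice in which smooth muscle cells (SMC) carried the eYFP reporter and deleted Klf4 (SMC eYFP+/+ Klf4Δ/Δ), and 1 was from mice with the same reporter and intact Klf4 (eYFP+/+ Klf4WT/WT). All mice were C57BL/6 on chow, and the sources used here do not give their age, the number pooled or the driver of the deletion. The list does not say which genotype a peak came from, so Klf4-deleted and Klf4-intact tissue were not compared, and whether any peak below depends on Klf4 was not tested. The stromal vascular fraction used holds smooth muscle, epithelial cells, macrophages and others, so a peak cannot be tied to a cell type, and a deletion in SMC leaves Klf4 in the remaining cells.

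Klf4 is a zinc-finger transcription factor that binds GC-rich and CACCC-type sequences and is best known in vessels for its part in the change of SMC phenotype. In cultured cells it is known to act with p53 on Cdkn1a, to arrest the cell cycle, and to repress Ccnd1 and Trp53. The D-type cyclins activate kinases that inactivate the retinoblastoma protein and so start DNA synthesis, p21 (Cdkn1a) and p27 (Cdkn1b) hold cyclin-dependent kinases back, and Myc raises transcription of growth genes. p53 induces both Cdkn1a and Mdm2, and Mdm2 in turn marks p53 for degradation.

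The DNA under the peaks could not be read, because no mm9 genome was used here. RefSeq promoters of another build, GRCm38.p6, were available for 4 of the 7 genes, with 2 start sites for Cdkn1a and 1 each for Cdkn1b, Mdm2 and Trp53. Their coordinates cannot be set against those of the mm9 peaks, so whether a peak covers a promoter shown here was not tested. The sequences are the 250 bases before a start site, 5′ to 3′ on the strand of the gene. They show what that stretch holds for both kinase inhibitors and for Mdm2, and sequence elsewhere in these genes was not searched. Capitals mark CACCC boxes, GC boxes (GGGCGG) and p53 consensus decamers on either strand.
Cdkn1a, upstream start, GRCm38.p6 chr17:29090729-29090978, plus strand: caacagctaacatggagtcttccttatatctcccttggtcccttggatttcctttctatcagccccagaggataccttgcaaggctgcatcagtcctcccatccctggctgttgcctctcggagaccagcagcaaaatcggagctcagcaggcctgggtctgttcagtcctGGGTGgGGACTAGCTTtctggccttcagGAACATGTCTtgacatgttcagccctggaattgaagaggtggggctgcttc
Cdkn1a, downstream start, GRCm38.p6 chr17:29093519-29093768, plus strand: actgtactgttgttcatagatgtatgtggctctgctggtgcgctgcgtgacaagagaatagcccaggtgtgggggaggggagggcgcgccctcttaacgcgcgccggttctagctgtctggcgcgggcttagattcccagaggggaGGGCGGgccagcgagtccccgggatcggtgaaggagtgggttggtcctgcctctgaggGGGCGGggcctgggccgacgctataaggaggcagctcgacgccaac
Cdkn1b, GRCm38.p6 chr6:134920151-134920400, plus strand: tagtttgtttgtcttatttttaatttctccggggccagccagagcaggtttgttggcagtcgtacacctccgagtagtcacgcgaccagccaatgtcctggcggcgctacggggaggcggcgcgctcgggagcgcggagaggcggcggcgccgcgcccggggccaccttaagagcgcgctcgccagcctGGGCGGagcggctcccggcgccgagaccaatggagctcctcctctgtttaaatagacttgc
Mdm2, GRCm38.p6 chr10:117710759-117711008, minus strand: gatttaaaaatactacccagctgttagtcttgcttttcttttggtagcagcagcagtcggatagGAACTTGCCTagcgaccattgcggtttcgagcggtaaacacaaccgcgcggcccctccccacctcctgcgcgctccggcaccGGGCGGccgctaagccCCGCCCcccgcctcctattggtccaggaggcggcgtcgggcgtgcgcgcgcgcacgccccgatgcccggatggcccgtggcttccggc

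The starts of Cdkn1a differed in what they held. Before the upstream start lay 1 CACCC box, read as GGGTG on the strand shown, and 2 p53 decamers. The decamer nearer to the start, GAACATGTCT, was followed directly by 10 bases that departed from the consensus at 1 position. Before the downstream start lay 2 GC boxes, the kind of element that Sp and Klf factors bind, and neither of the other elements. Cdkn1b held 1 GC box, Mdm2 held 2 GC boxes and 1 p53 decamer (GAACTTGCCT), and Trp53, whose 250 bases overlap the neighbouring gene Wrap53 and are not printed, held 1 CACCC box and 1 p53 decamer (GGACTTGCCC). GC boxes were thus in 3 of 5 member promoters, against 32.7% of all 32851 promoters and 42.6% of the 21262 of protein-coding genes. CACCC boxes were in 2 of 5, against 52.0% and 54.2%, and p53 decamers in 3 of 5, against 7.13% and 6.31%. The decamer was added to the search after the promoters were seen, so its count only describes these sequences. The Klf4-type sites GGGCGTGG and GGGTGTGG and the E-box CACGTG, which Myc binds, were in 0 of 5, against 4.79%, 3.20% and 6.02% of all promoters. A match is a feature of the letters and not a bound site, and the promoters compared were not matched for GC content.

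Of 30 other genes of these pathways, 25 had a promoter in that table, with 34 start sites. The genes were regulators of the retinoblastoma axis, further kinase inhibitors, Myc partners, regulators of p53 and p53 targets. Starts of the same gene were counted separately, so they are not independent, and the promoters compared were not matched for GC content. GC boxes were in 26 of the 34 (76.5%), against 32.7% of all promoters and 42.6% of those of protein-coding genes. CACCC boxes were in 25 (73.5%), against 52.0% and 54.2%. GGGCGTGG was in 7 (20.6%, against 4.79% and 6.33%), which included Ccne1, the gene of cyclin E, with 2 copies. GGGTGTGG was in 3 (8.82%, against 3.2% and 3.32%). Of those 3, 2 were starts of Bbc3, an inducer of cell death under p53, and 1 was of Cdk4, a partner of the D-type cyclins. The E-box was in 5 (14.7%, against 6.02% and 6.63%), with 4 copies at Cdk4. The p53 decamer was in 6 of the 34 (17.6%), against 7.13% and 6.31%. Those were starts of Bax, Gadd45a, Ccng1, Sesn1 and Ppm1d, all known p53 targets, and of Cdkn2d. The p53 targets Bbc3, Sesn2, Btg2 and Phlda3 had none, and neither did the other start of Sesn1. Peaks at these genes were not counted, because their mm9 positions were not used here.

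Every window held at least 1 peak, while most stretches of the genome of the same length held none. Cut into consecutive tiles over the 19 autosomes and chromosome X, 8.00% of tiles of 35 kb (the length used for Cdkn1b and Trp53) held a peak midpoint. The share was 8.96% at 40 kb (Cdkn1a and Myc), 9.95% at 45 kb (Ccnd1) and 11.7% at 55 kb (Ccnd2 and Mdm2). Tiles include long stretches without genes and the windows were laid over genes, so these shares are the level of the list and not that of genes in general, which was not measured. The 9 peaks came to 29.5 per Mb of window (exact Poisson 95% interval 13.5 to 56.0, counting error only). Over the 19 autosomes and chromosome X the list held 7298 peaks. These came to 2.86 per Mb between the first and last peak of each chromosome. The interval treats the peaks as independent, although those of Trp53 and those of Mdm2 lay close together. There is no replicate behind these counts, and because the genes were chosen with results of these data known, no test was attached to them.

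**Figure D1:**
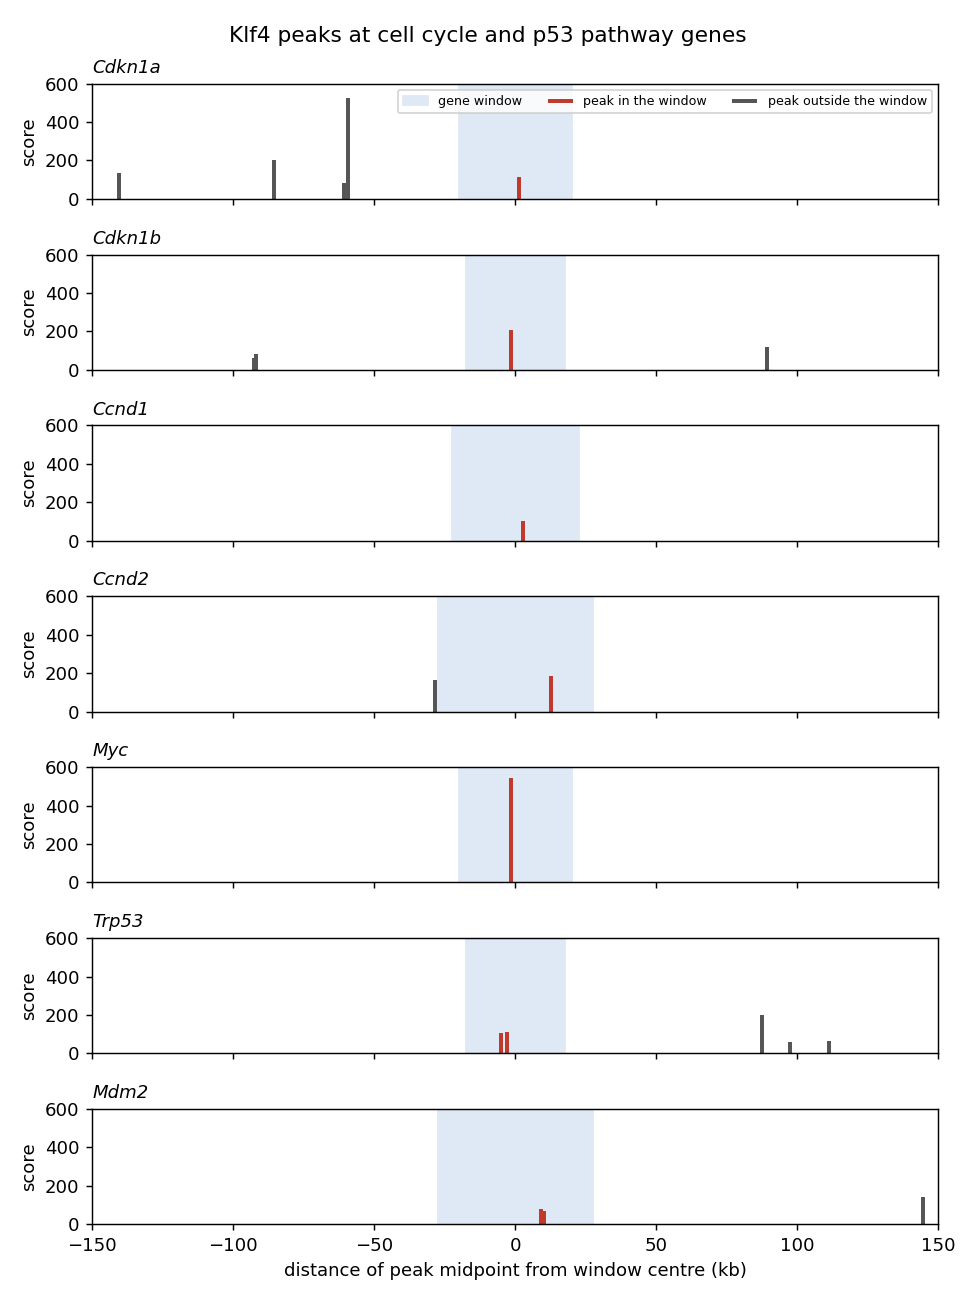
Klf4 peaks within 150 kb of the centre of each gene window, from Cdkn1a at the top to Mdm2 at the bottom, with the authors' peak score (no unit) on the vertical axis and distance in kb on the horizontal axis. Red lines are peaks in the window (shaded), grey lines peaks outside it; the Myc peak (546.26) is the tallest and stands alone, while Cdkn1a has its tallest neighbour (524.74) outside the window.

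The 9 peaks ranged widely in the score that the authors' peak caller gave them, a number whose formula is not stated and which, as MACS scores usually run, is larger for stronger evidence of a peak. Their scores ran from 66.83 to 546.26 with a median of 110.05, against a median of 112.02 over all 7313 peaks. Of the 9, 4 scored above that median and 3 were above the upper quartile of the list, 161.17. Their widths ran from 630 to 2838 bp with a median of 1125 bp, against 913 bp over the list, and 6 of the 9 were wider than the list's median.

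Both kinase inhibitor genes held 1 peak each, and that of Cdkn1b had the higher score. The Cdkn1b peak (chromosome 6, 134870413 to 134871715) was 1303 bp wide with a score of 206.28, higher than 86.8% of all peaks. It lay 1.4 kb from the centre of its window, and its gaps to the neighbouring peaks, 89.6 kb at lower and 89.8 kb at higher coordinates, were nearly equal. Within 100 kb of the Cdkn1b window there were 3 other peaks, with scores of 63.44, 82.89 and 115.86, all below that of the window.

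The Cdkn1a peak (chromosome 17, 29230711 to 29231842) was 1132 bp wide and scored 112.39, higher than 50.5% of all peaks and so at the middle of the list. It was wider than 69.9% of peaks, so its score per kb, 99.3, exceeded that of only 24.3% of the list. Its midpoint lay 1.3 kb from the centre of the window. A peak with a much higher score, 524.74 (rank 27 of the list), lay outside the window at 29169595 to 29171653. Its width was 2059 bp, and its midpoint lay 39.4 kb from the window's edge. It was the highest of the 18 peaks within 1 Mb of the Cdkn1a window's centre, and a peak of 608 bp with a score of 81.47 adjoined it. In GRCm38.p6 the genes next to Cdkn1a are Trp53cor1, a p53-induced noncoding RNA also called lincRNA-p21, on one side and Rab44 on the other. The higher-scoring peak outside the window was not assigned to a gene.

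The D-type cyclin genes each held 1 peak, and that of Ccnd2 was wider and scored higher. The Ccnd2 peak (chromosome 6, 127099235 to 127100961) was 1727 bp wide, wider than 94.0% of the list, with a score of 187.54, higher than 82.8%. The Ccnd1 peak (chromosome 7, 152125099 to 152125728) was the narrowest of the set at 630 bp, wider than 17.4% of the list, and scored 102.89, higher than 45.3%. Set against peaks of like width (within 10%), the order turned round: the Ccnd2 score was higher than 48.6% of 395 such peaks and the Ccnd1 score higher than 73.0% of 1021.

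Ccnd2 was also the gene at which the edge of the window mattered. A peak of 786 bp with a score of 166.51 at 127058834 to 127059619 had its midpoint 774 bp outside the window, and no other gene had a peak within 20 kb of its window. In GRCm38.p6 the neighbour of Ccnd2 on the side of lower coordinates is Tigar, a p53-inducible regulator of glycolysis. The position of the peak relative to Tigar was not determined. On the other side the next peak was 1150 kb away. Ccnd1 lay in sequence with few peaks, with gaps of 468 and 343 kb and 2 further peaks within 1 Mb. Its peak was 0.34 Mb from the last peak of chromosome 7, and how much of the 1 Mb on that side is sequence was not determined. In GRCm38.p6 Ccnd1 overlaps its neighbour LTO1, and Ccnd2 overlaps 9330179D12Rik. The peaks were not placed relative to these neighbours.

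The Myc peak had the highest score of the set. Myc encodes the transcription factor that many growth signals induce in resting cells. Its peak (chromosome 15, 61817006 to 61819843) was 2838 bp wide with a score of 546.26, which put it at rank 21 of the list in score and rank 28 in width. The next score of the set was 206.28, at Cdkn1b. The Myc peak scored highest of the 286 peaks on chromosome 15. Wide peaks tend to score high, and among the 34 peaks of like width it was higher than 88.2%. Its score per kb, 192.5, was the highest of the set and exceeded 83.5% of the list. It covered 7.10% of its window.

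The Myc peak was also the most isolated. No other peak lay within 1 Mb of the centre of its window. The nearest peaks were 1160 kb away at lower coordinates, with a score of 235.12, and 2070 kb away at higher coordinates, with a score of 242.09. Of all peaks, 98.9% had a nearer neighbour. In GRCm38.p6 the adjoining genes are the noncoding RNA genes D030024E09Rik and Pvt1, and Myc overlaps neither.

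**Figure D2:**
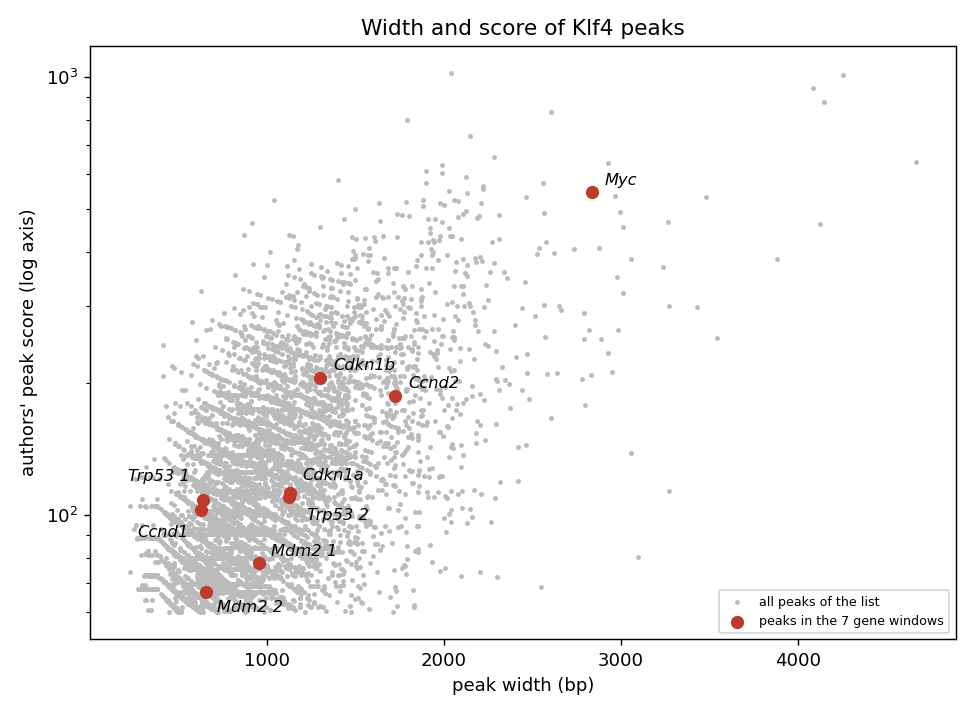
Width in bp (horizontal axis) and the authors' score on a log axis (vertical) for all 7313 peaks in grey and the 9 peaks in the gene windows in red, numbered from lower coordinates where a window holds 2. Myc lies at the upper right (2838 bp, 546.26), both Mdm2 peaks lie near the lower edge (77.77 and 66.83), and Cdkn1a and the wider Trp53 peak lie almost on top of each other.

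Trp53 and Mdm2, which form a feedback loop, were the genes with 2 peaks each in their windows. With peaks under 1 kb apart merged, Mdm2 held 1, and with windows widened by 20 kb, Ccnd2 held 2 as well. At least 2 midpoints were held by 1.45% of 35 kb tiles, the length of the Trp53 window, and by 2.79% of 55 kb tiles, that of Mdm2. In both windows the peaks were close together, which makes them less than independent observations.

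The Trp53 peaks had nearly the same score and different widths. That at 69392243 to 69392880 on chromosome 11 was 638 bp wide with a score of 108.07, and that at 69394108 to 69395232 was 1125 bp wide with a score of 110.05. They were 1227 bp apart and together spanned 2990 bp. Both scores were just under the median of the list, higher than 47.9% and 48.9% of peaks. Against peaks of like width the narrow one was higher than 74.2% and the wide one higher than 33.6%. In GRCm38.p6 the nearest genes are Wrap53, which lies head to head with Trp53 and is needed for telomerase and Cajal bodies, and Atp1b2, a subunit of the sodium pump. Which of these genes a peak belongs to was not determined. The surroundings were rich in peaks, with 41 others within 1 Mb and 5.21 peaks per Mb on chromosome 11 as a whole, and the nearest beyond the window scored 200.79.

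The Mdm2 peaks had the lowest scores of the set. They lay on chromosome 10 at 117146349 to 117147303 (955 bp, score 77.77) and at 117147429 to 117148086 (658 bp, score 66.83), higher than 20.2% and 7.4% of the list. Only 125 bp separated them, and 6.0% of all peaks had a nearer neighbour. Merged, they form 1 region of 1738 bp. Both were also low for their width, higher than 14.7% and 14.3% of peaks of like width. They lay 9.3 and 10.3 kb from the centre of the window. Beyond the window the nearest peak, with a score of 139.93, was 117 kb from its edge, toward higher coordinates, on which side Slc35e3 adjoins Mdm2 in GRCm38.p6.

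**Figure D3:**
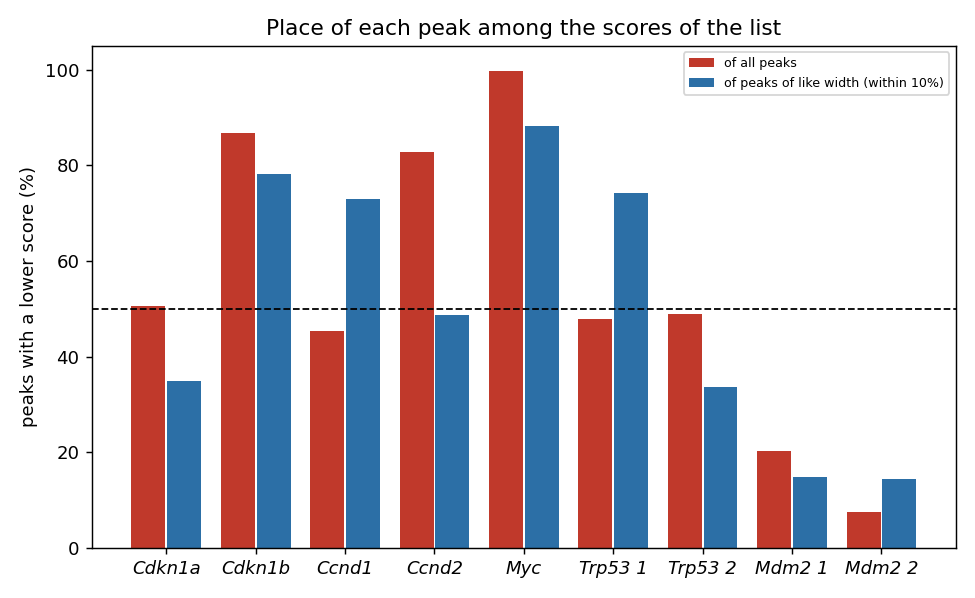
Percent of peaks with a lower score than each of the 9 peaks, among all 7313 peaks (red) and among peaks whose width is within 10% (blue), with a dashed line at 50%. Myc (99.7% and 88.2%) and Cdkn1b (86.8% and 78.1%) are above the line on both measures. The wider Trp53 peak (48.9% and 33.6%) and both Mdm2 peaks are below it on both.

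By the score of the highest peak the genes stood in the order Myc, Cdkn1b, Ccnd2, Cdkn1a, Trp53, Ccnd1 and Mdm2. The 3 neighbours Cdkn1a, Trp53 and Ccnd1 (112.39, 110.05 and 102.89) were close. With no replicate the spread of a score is unknown, so no place in the order is resolved. Across the 9 peaks wider peaks scored higher (Spearman's rho = 0.85), as over the whole list (rho = 0.55). These are descriptions across peaks of 1 list, in which width and score come from the same reads. By score per kb the Myc peak was the highest of the 9 (192.5), followed by the narrow Trp53 peak (169.4) and the Ccnd1 peak (163.3).

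The 5 peaks at Cdkn1a, Cdkn1b, Ccnd1, Ccnd2 and Myc had no neighbour within 25 kb, as did 61.0% of all peaks, so the set was near the level of the list. Their nearest neighbours were 59.1, 89.6, 343, 39.6 and 1160 kb away. The list's median of 39.6 kb takes in peaks with close neighbours too, so it is not a like comparison for these 5 peaks. The 4 peaks at Trp53 and Mdm2 each had a neighbour within the same window, 1.23 kb away at Trp53 and 0.125 kb at Mdm2.

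**Figure D4:**
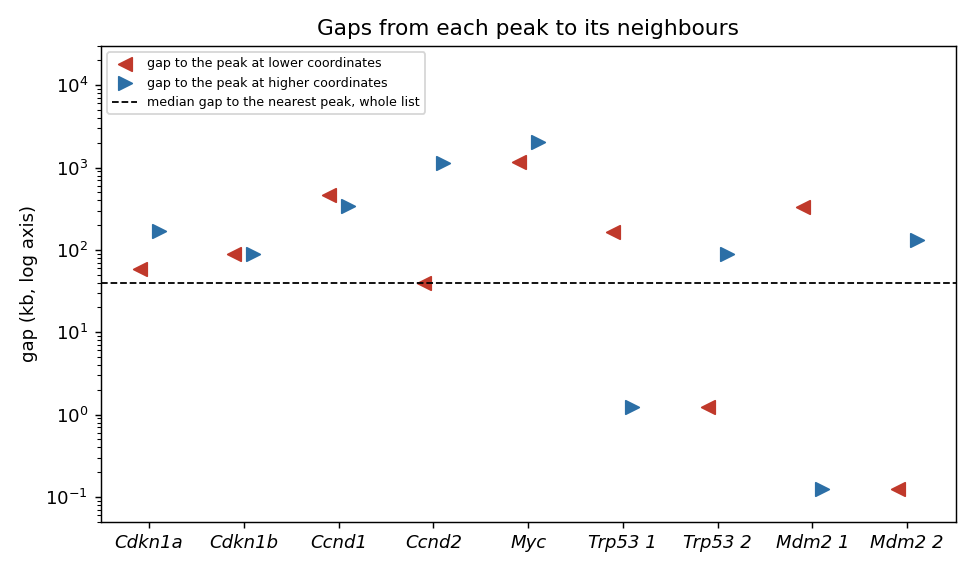
Gap in kb, on a log axis, from each of the 9 peaks to the next peak at lower (red) and higher (blue) coordinates, with the list's median gap to the nearest peak (39.6 kb) dashed. Myc has the longest gaps (1160 and 2070 kb) and the Mdm2 pair the shortest (0.125 kb).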

How the data were processed

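Peaks were used as deposited, in 1 list without a header. Per the submitters' processing notes, Bowtie and SAMtools were used with build mm9, without versions. The peak names begin with MACS, and the deposited score of each peak is the authors' value, and the sources used here do not give its formula, the threshold or the control library. The depth of the libraries is unknown. Starts were shifted by 1 so that coordinates are 1-based. The 7 members, their windows and all lists were chosen with earlier results of these data known, and every gene of the set is described. Counts per window, widths, scores, gaps and shares of lower-ranking peaks were computed with Python 3.11.15, numpy 2.4.6, pandas 2.3.3 and scipy 1.17.1, and figures with matplotlib 3.10.9. The counting code was tested on simulated data. Cell type markers were not checked, since a peak list gives no expression. Windows were not checked against an mm9 annotation. Names of adjoining genes (protein-coding and noncoding RNA genes) and promoters came from RefSeq, GRCm38.p6, and no coordinates were converted. Motifs were searched in the 250 bases before each start on both strands, and the p53 decamer was added after the promoters were seen.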

Additional observations from a re-analysis of the deposited data

How the results depend on the processing

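The count of 9 peaks stayed at 9 with any overlap in place of the midpoint, became 8 with peaks under 1 kb apart merged (the Mdm2 pair), 10 with windows widened by 20 kb (Ccnd2) and 12 by 50 kb (Cdkn1a as well), and each of these left 7 of 7 windows with a peak. Among the upper 50% of scores 4 peaks in 4 windows remained (Cdkn1a, Cdkn1b, Ccnd2 and Myc), and among the upper 25% 3 in 3 (Cdkn1b, Ccnd2 and Myc), by construction. Of the 7 genes, 2 kept their place when ordered by the score per kb of the highest-scoring peak (Myc and Mdm2). Only 1 of the 7, Myc, kept its place by the summed score of the window and, an order added after the data were seen, by the highest score per kb of any peak of the window. The median width of each gene's highest peak was 1132 bp, and 1303 bp after merging. Tiled shares, with settings chosen after the data were seen, moved by less than their counting interval when tiles were shifted by 50%, and over the chromosomes of the 7 genes were 9.26%, 10.4%, 11.5% and 13.3% at 35, 40, 45 and 55 kb. No paired analysis was possible because the peaks form 1 list that names no library. With depth unknown, a low score does not show weak binding.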
